A study of Mus musculus with 10 samples.

Results

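Integrins and the proteins that couple them to actin were described in aortic smooth muscle cells of mouse embryos with and without elastin. The 32 members were a fixed list of gene symbols, found by symbol in the deposited count table, which holds 28165 genes. They were 11 integrin alpha subunits, 4 integrin beta subunits and 17 adaptor proteins of focal adhesions. All 32 had a row in the table, and 30 had enough counts to be tested. The alpha subunits Itga2 and Itga3 did not.

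Each integrin is a heterodimer of an alpha and a beta chain that spans the plasma membrane and binds matrix outside the cell. Talins and kindlins bind the beta tail inside the cell and switch the receptor on, and vinculin, alpha-actinins, filamins and the Ilk, Pinch and parvin complex tie it to actin, while the focal adhesion kinase, paxillin and p130Cas pass on signals. In the arterial wall these contacts anchor smooth muscle cells to fibronectin, laminin, collagen and elastic fibres, and they carry the load between the matrix and the contractile cytoskeleton.

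The cells came from embryonic day 15.5 aortas of crosses between Eln heterozygotes, and all carried the Acta2-GFP reporter. After collagenase digestion, live cells with the reporter and without the endothelial protein CD31 were sorted (DAPI served as the dead-cell dye). Cells with Acta2 off were thus to be left out, and markers of other cell types are given below. There were 5 libraries of Eln+/+ cells and 5 of Eln-/- cells, all untreated, and the comparison asks how loss of elastin changes smooth muscle gene expression. The labels give neither the null allele nor the number of embryos per library, so p-values measure the spread between libraries, which may be partly technical.

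Elastin served as the check of the genotype labels. Rounded counts of Eln (chromosome 5, 134702593 to 134747323, minus strand, mm10) were 2409, 105866, 8603, 49878 and 31530 for Eln+/+ (replicates 1 to 5, the order of all such series of values here) against 36, 1, 0, 1 and 0 for Eln-/-, with no overlap. Total counts were 26951681 to 63866346 per library. Eln+/+ replicate 1 and Eln-/- replicates 4 and 5 stood apart, with 15089 to 15925 genes detected against 18157 to 22951 in the other 7. Eln-/- replicate 1 stood at the other end, with the most genes detected. Its summed level of 8 immediate early genes was 18255 CPM (counts scaled by library size), against 7671 CPM in Eln+/+ replicate 2 and 538 to 3386 CPM in the other 8. Of 8 smooth muscle markers, 6 had counts in every library. The summed level of all 8 was 1026 to 2483 CPM for Eln+/+ against 1193 to 3911 CPM for Eln-/-. The 6 fibroblast markers, among them Dcn and Lum, also had counts in every library, at 1208 to 3975 CPM for Eln+/+ against 520.3 to 2477 CPM for Eln-/-. Markers of endothelium, at 14.7 to 79.8 CPM for Eln+/+ against 23.8 to 53.0 CPM for Eln-/-, and of leukocytes, at 0 to 12.1 and 0 to 8.06 CPM, were low. Cardiomyocyte markers ranged over 4.26 to 818 CPM for Eln+/+ against 19.3 to 784 CPM for Eln-/-, and red cell and platelet markers over 97.7 to 4625 CPM for Eln+/+ against 9.76 to 1299 CPM for Eln-/-. Epithelial markers summed to 0.428 to 8.74 CPM for Eln+/+ against 5.39 to 18.5 CPM for Eln-/-. Glial and neural crest markers summed to 0 to 6.53 CPM for Eln+/+ against 0 to 4.75 CPM for Eln-/-. The part of these other cells in the values below was not tested. In bulk libraries, fewer cells of a type and less RNA per cell cannot be told apart.

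Among the beta subunits, Itgb1 was the main transcript in each of the 10 libraries. It encodes the chain shared by most receptors for collagen, laminin and fibronectin. Levels of different genes are given as RPKM, the CPM divided by the length of annotated exon in kilobases. Over all libraries Itgb1 was at 58.2 ± 57.1 RPKM, followed by Itgb5 at 7.45 ± 5.95, Itgb3 at 2.73 ± 2.73 and Itgb8 at 0.146 ± 0.194 (mean ± SD, n = 10). Itgb1 made up 74.8% to 97.0% of the summed beta RPKM of a library, 85.2% ± 7.93 in Eln+/+ and 86.3% ± 3.27 in Eln-/- (SD, n = 5 each). The order Itgb1, Itgb5, Itgb3 was found in both genotypes, and the spreads of Itgb5 and Itgb3 overlapped.

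**Figure D1:**
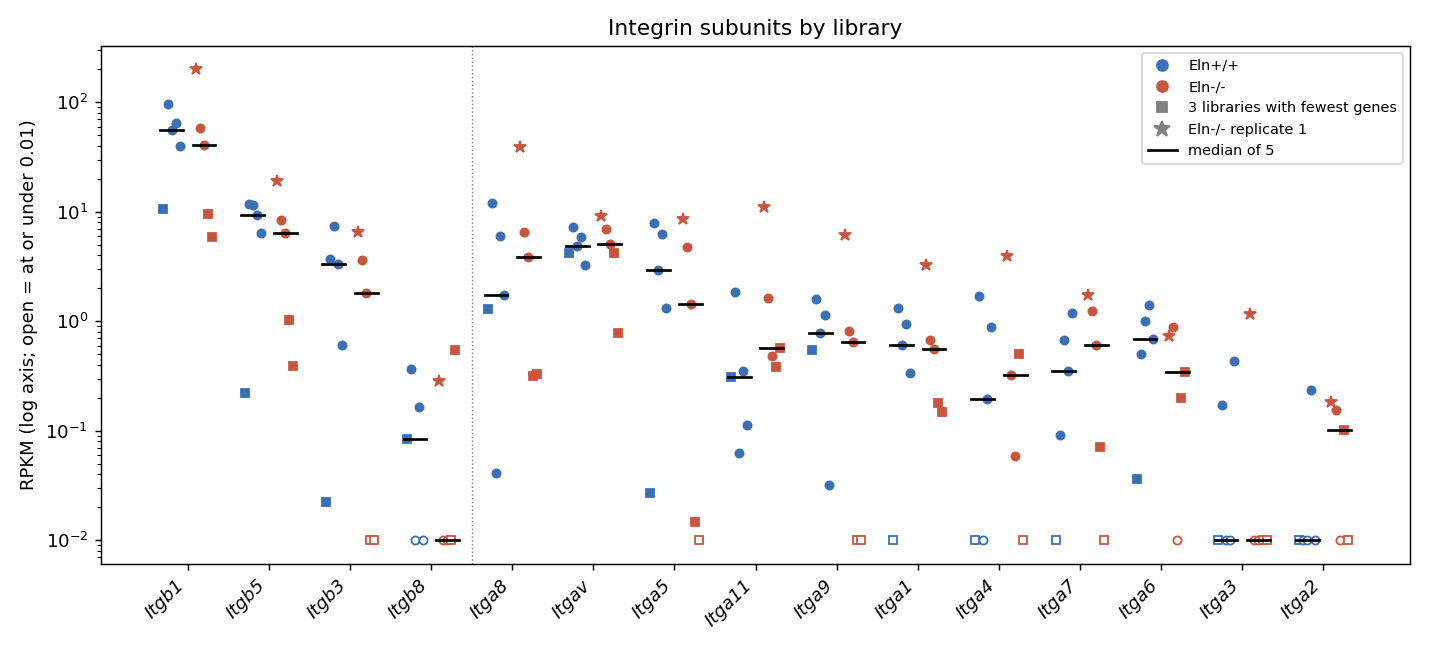
RPKM on a log axis for the 4 beta and 11 alpha integrin subunits in each library, with Eln+/+ in blue, Eln-/- in red, squares for the 3 libraries with the fewest detected genes, a star for Eln-/- replicate 1 and bars for the median of 5. Itgb1 lies above the other beta subunits in every library, the star is the highest point of most genes, and the squares of Itgb1, Itgb3, Itgb5, Itga1, Itga5 and Itga7 lie below the other 7 points.

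Itgb1 (chromosome 8, 128685654 to 128733200, plus strand) was at 43.2, 392, 229.6, 262 and 164 CPM for Eln+/+ against 814, 240.1, 167, 39.3 and 24.1 CPM for Eln-/-. Eln+/+ replicate 1 and Eln-/- replicates 4 and 5 were the low ones, in both genotypes, and the single highest value was in Eln-/- replicate 1. The log2 fold change of Itgb1, Eln-/- over Eln+/+, was 0.24 (SE 0.88), with a 95% interval of -1.69 to 2.16, and it turned to -0.89 without Eln-/- replicate 1. Itgb5 (chromosome 16, 33829665 to 33949338, plus strand), which pairs with Itgav as a vitronectin receptor, was at 0.794, 41.7, 40.9, 33.3 and 22.6 CPM for Eln+/+ against 67.5, 30.1, 22.8, 3.63 and 1.39 CPM for Eln-/-. The genotypes overlapped fully, and the 3 lowest values were those of the 3 libraries with the fewest genes. Its log2 fold change was -0.15 (SE 1.04), and -0.94 without Eln-/- replicate 1.

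Itgb3, the other common partner of Itgav, ranged over 0 to 44.0 CPM and had 0 counts in Eln-/- replicates 4 and 5, where 3 counts would be 0.218 and 0.113 CPM. That limit covers counting error only. The mean of Itgb3 was 17.9 ± 17.5 CPM for Eln+/+ against 14.3 ± 16.5 CPM for Eln-/- (SD, n = 5), and its log2 fold change was -0.33 (SE 1.65). Itgb8 (chromosome 12, 119158022 to 119238802, minus strand), whose pairing with Itgav activates latent TGF-beta, was at 0.926, 4.06, 0, 1.84 and 0 CPM for Eln+/+ against 3.16, 0.0762, 0.0213, 0 and 6.07 CPM for Eln-/-. Itgb8 was second by RPKM in Eln-/- replicate 5 and lowest or near 0 in most other libraries, and the genotypes overlapped. With a log2 fold change of 0.45 (SE 1.91) its interval, -3.73 to 4.63, was the widest of the 30 members tested.

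The alpha repertoire was led by Itgav and Itga8. Itgav pairs with several beta chains and binds proteins with the RGD motif, such as vitronectin and fibronectin, while Itga8 marks smooth muscle and other contractile mesenchyme and pairs with Itgb1. By mean RPKM over 10 libraries Itga8 came first (7.16 ± 11.9), then Itgav (5.17 ± 2.34), Itga5 (3.33 ± 3.34), Itga11 (1.67 ± 3.32) and Itga9 (1.17 ± 1.81). The place of Itga8 rested on Eln-/- replicate 1. Without it Itgav came first, and within single libraries Itgav ranked first in 7 of 10, Itga8 in 2 and Itga5 in 1. The means of Itga1, Itga4, Itga7 and Itga6 lay between 0.584 and 0.804 RPKM and did not differ beyond their spread. Itga3 and Itga2 were lowest, at 0.178 ± 0.373 and 0.0678 ± 0.0934 RPKM.

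**Figure D2:**
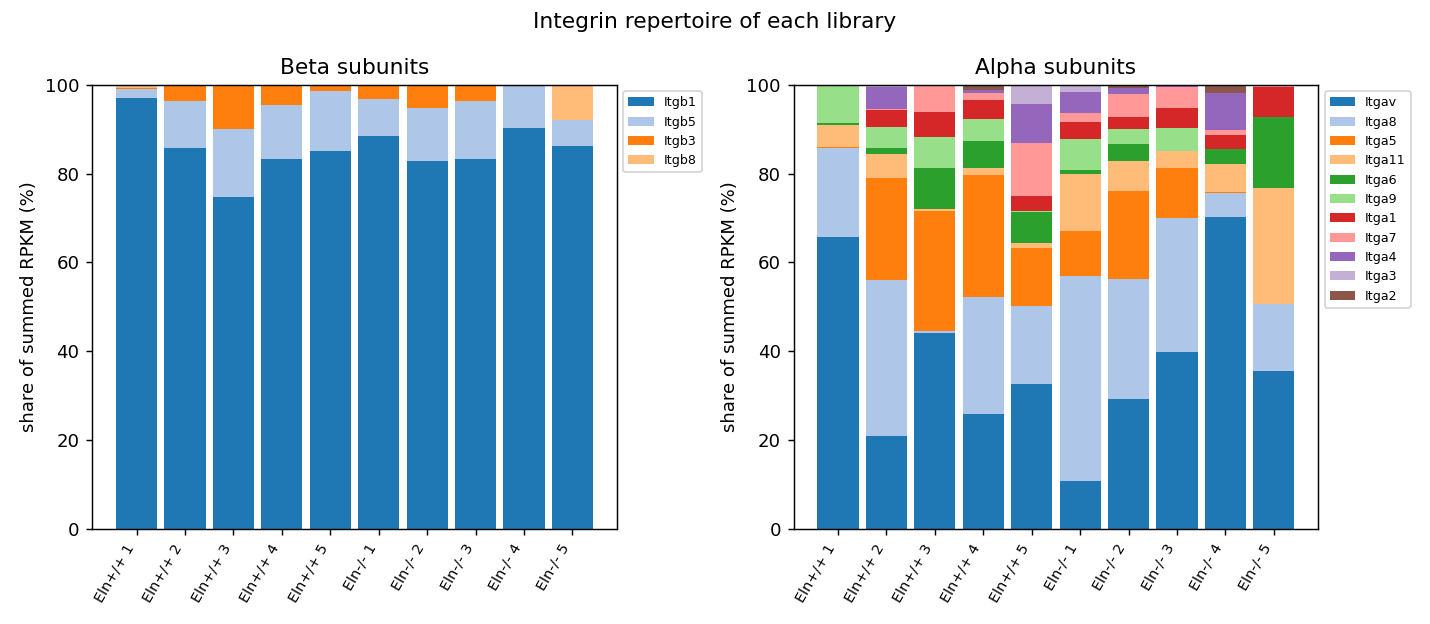
Share of each subunit in the summed RPKM of the beta (left) and alpha (right) integrin subunits, in percent, for each of the 10 libraries. Itgb1 fills 74.8% or more of each beta bar, and the share of Itgav in the alpha bars runs from 10.7% in Eln-/- replicate 1 to 70.3% in Eln-/- replicate 4.

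The share of Itgav among alpha subunits was 37.9% ± 17.8 in Eln+/+ and 37.1% ± 21.6 in Eln-/- (SD, n = 5). Itgav (chromosome 2, 83724397 to 83806916, plus strand) also had the smallest within-genotype spread of the alpha subunits, an SD of 1.03 in log2 CPM. Its CPM was 45.3, 78.1, 52.3, 63.4 and 35.0 in Eln+/+ and 98.3, 75.5, 54.4, 44.9 and 8.33 in Eln-/- replicates 1 to 5. The genotypes overlapped, and Eln-/- replicate 5 was low. The log2 fold change of Itgav was 0.038 (SE 0.56), with an interval of -1.19 to 1.27. A 634-base stretch of its exons overlaps Gm13684 on the other strand.

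Itga8 (chromosome 2, 12106632 to 12301922, minus strand) was at 9.46, 89.3, 0.304, 44.4 and 12.9 CPM for Eln+/+ against 290.1, 48.2, 28.3, 2.32 and 2.45 CPM for Eln-/-. A single library, Eln-/- replicate 1, was 3.25 times as high as the next one, and Eln+/+ replicate 3 was nearly without the transcript. The log2 fold change of Itga8 was 1.25 (SE 1.38), 1.75 without the 3 libraries with the fewest genes and -0.63 without Eln-/- replicate 1. Itga5 (chromosome 15, 103344286 to 103366763, minus strand), the alpha chain of the classical fibronectin receptor, was at 0.132, 39.3, 14.6, 31.0 and 6.46 CPM for Eln+/+ against 42.2, 23.6, 7.05, 0.0726 and 0 CPM for Eln-/-. Its 3 lowest values, all under 0.2 CPM, were in the 3 libraries with the fewest genes, and the other 7 values overlapped between genotypes. The mean of Itga5 was 18.3 ± 16.5 CPM for Eln+/+ against 14.6 ± 18.2 CPM for Eln-/-, with a log2 fold change of -0.33 (SE 1.58).

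Itga11, a collagen receptor of mesenchymal cells, had the largest fold change and the smallest p of the alpha subunits. Itga11 (chromosome 9, 62677826 to 62783982, plus strand) was at 1.59, 9.59, 0.325, 1.79 and 0.579 CPM for Eln+/+ against 56.2, 8.40, 2.47, 1.96 and 2.94 CPM for Eln-/-. Its genotypes overlapped through Eln+/+ replicate 2, although all 5 Eln-/- values lay above 4 of the 5 Eln+/+ values. The log2 fold change was 2.37 (SE 1.27), with an interval of -0.40 to 5.14 and an adjusted p of 1.00 (edgeR's quasi-likelihood test, Benjamini-Hochberg), and was 0.50 without Eln-/- replicate 1. Itga6 (chromosome 2, 71745616 to 71858416, plus strand), a laminin receptor chain, was at 0.331, 4.53, 9.09, 12.8 and 6.28 CPM for Eln+/+ against 6.69, 8.05, 0.0426, 1.82 and 3.13 CPM for Eln-/-. It was one of 2 alpha subunits with a negative value, -0.74 (SE 1.17), beside Itga5, and its genotypes overlapped.

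The remaining alpha subunits had wide ranges. Itga1, a collagen and laminin receptor of smooth muscle, ranged over 0 to 60.3 CPM with a log2 fold change of 0.57 (SE 1.24). Itga4, which binds fibronectin and Vcam1, ranged over 0 to 55.4 CPM (log2 fold change 0.80, SE 1.76), and 1124 bases of its exons overlap Cerkl on the other strand. Itga9, a receptor for tenascin C among others, ranged over 0 to 47.0 CPM (log2 fold change 0.88, SE 1.64). Itga7, the laminin receptor of mature muscle, ranged over 0 to 14.1 CPM (log2 fold change 0.68, SE 1.49). Eln-/- replicate 1 held the highest value of each of these 4. Without it the log2 fold changes of Itga1, Itga4 and Itga9 were -0.74, -1.34 and -1.16, and that of Itga7, which did not reverse, was 0.084. Itga3 had counts in 5 libraries and reached 6.63 CPM, and Itga2 had counts in 4 and reached 1.69 CPM. A count of 0 in a library allows up to 0.0344 to 0.218 CPM (3 counts, counting error only).

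Of the adaptor proteins, Ilk and Pdlim7 were both abundant and even across libraries. Ilk is the pseudokinase at the heart of the complex with Pinch and parvin, and Pdlim7 (Enigma) is a PDZ and LIM protein of actin filaments. By mean RPKM over 10 libraries Ilk came first (155 ± 35.8), then Pdlim7 (35.3 ± 11.1), Zyx (25.6 ± 18.5), Fermt2 (18.5 ± 12.3), Lims1 (18.5 ± 11.4) and Vasp (17.6 ± 9.47). Ilk was first in each of the 10 libraries. The means of Fermt2, Lims1 and Vasp did not differ beyond their spread. Tln2, a relative of Tln1, was lowest at 0.126 ± 0.165 RPKM.

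**Figure D3:**
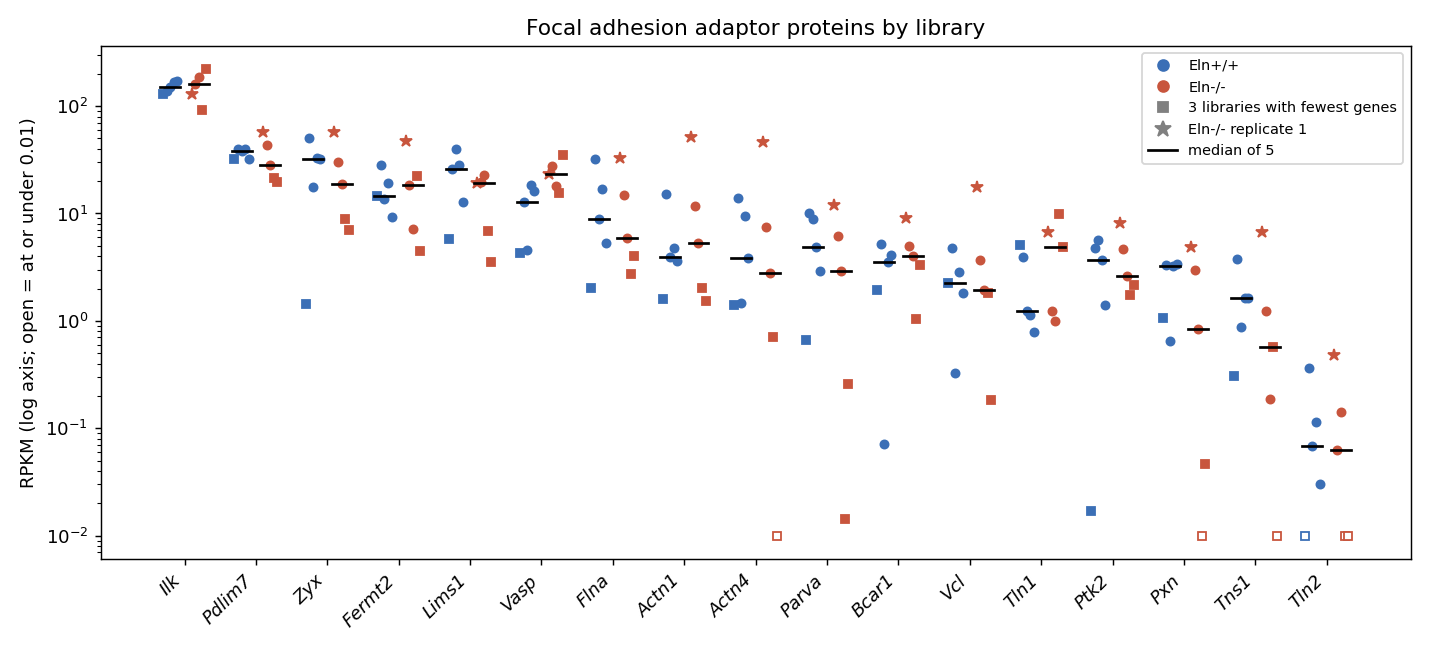
RPKM on a log axis for the 17 adaptor proteins in each library, ordered by mean, with colours, symbols and bars as in the plot of the integrin subunits. Ilk lies highest in every library with little spread, the squares of Tln1 lie above all its other points but the star, and Parva and Pxn reach far down in Eln-/- replicates 4 and 5.

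Ilk (chromosome 7, 105736592 to 105742925, plus strand) was at 358, 377, 409, 459 and 475 CPM for Eln+/+ against 358, 441, 517, 249.8 and 605 CPM for Eln-/-. Its genotypes overlapped, and its within-genotype SD of log2 CPM, 0.373, compares with a median of 1.83 over all genes tested. Ilk had a log2 fold change of 0.063 (SE 0.39), with an interval of -0.79 to 0.91. Of the 2744 bases of Ilk exon, 2106 overlap Taf10 and 355 overlap Rrp8, both on the other strand, so part of its counts may belong to them. Taf10 itself was at 17.1 to 29.0 CPM. The partners of Ilk varied more. Lims1 (Pinch1) ranged over 17.3 to 194 CPM, with means of 110.3 ± 65.3 CPM for Eln+/+ against 70.2 ± 41.9 CPM for Eln-/- and a log2 fold change of -0.65 (SE 0.63) that was negative in each of the 18 other settings run. Parva (alpha-parvin) ranged over 0.145 to 121 CPM, with its 3 lowest values in the 3 libraries with the fewest genes (log2 fold change -0.37, SE 1.18).

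Pdlim7 (chromosome 13, 55495795 to 55513676, minus strand) was at 156, 195, 187, 194 and 158 CPM for Eln+/+ against 278, 209, 136, 104 and 96.2 CPM for Eln-/-. Its Eln+/+ values all lay inside the range of the Eln-/- values. Pdlim7 had a log2 fold change of -0.11 (SE 0.40), with an interval of -0.98 to 0.76.

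The activators of integrins, talins and kindlin, went separate ways between libraries. Tln1 (chromosome 4, 43531519 to 43562691, minus strand), the main talin, was at 49.9, 38.5, 12.0, 11.2 and 7.75 CPM for Eln+/+ against 66.1, 12.1, 9.82, 96.2 and 47.4 CPM for Eln-/-. Against the run of the other members, Tln1 was high in the 3 libraries with the fewest genes as well as in Eln-/- replicate 1. Its log2 fold change was 0.96 (SE 0.76) and stayed between 0.054 and 1.43 over the 18 other settings. Exons of Tln1 and Creb3 share 360 bases. Tln2 ranged over 0 to 8.76 CPM (log2 fold change 0.24, SE 1.72). Fermt2, or kindlin-2 (chromosome 14, 45458795 to 45530118, minus strand), was at 76.2, 148, 71.0, 101 and 48.1 CPM for Eln+/+ against 243, 95.3, 37.5, 115 and 23.3 CPM for Eln-/-. The highest and the lowest Fermt2 values were both in Eln-/- libraries, and its log2 fold change was 0.21 (SE 0.61).

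The actin linkers Vcl, Actn1 and Actn4 were highest in Eln-/- replicate 1. Vcl, or vinculin (chromosome 14, 20929398 to 21033676, plus strand), was at 18.4, 38.8, 2.66, 23.2 and 15.0 CPM for Eln+/+ against 144, 30.4, 16.0, 14.7 and 1.51 CPM for Eln-/-. Leaving out Eln-/- replicate 1, both genotypes spanned a like range, and the log2 fold change of Vcl went from 1.08 (SE 1.00) to -0.33. Exons of Vcl share 2090 bases with Ap3m1 on the other strand, so counts in that stretch cannot be assigned with certainty. Actn1, an alpha-actinin that crosslinks actin (chromosome 12, 80167547 to 80260371, minus strand), was at 8.93, 84.2, 22.0, 26.4 and 19.8 CPM for Eln+/+ against 283, 65.3, 29.3, 11.2 and 8.44 CPM for Eln-/-. Eln-/- replicate 1 again lay alone, 3.36 times above the next library, and the log2 fold change went from 1.30 (SE 0.96) to -0.18 without it. The related Actn4 ranged over 0.0377 to 283 CPM, and its log2 fold change went from 0.92 (SE 1.38) to -1.13. Flna, the X-linked filamin A (19.0 to 310.4 CPM), and Tns1, a tensin of fibrillar adhesions (0.113 to 107 CPM), had log2 fold changes of -0.11 (SE 0.83) and 0.076 (SE 1.21).

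Zyx and Vasp act together in actin assembly at adhesions and stress fibres, and their values differed in pattern. Zyx, or zyxin (chromosome 6, 42349630 to 42360213, plus strand), was at 7.74, 271, 94.9, 176 and 172 CPM for Eln+/+ against 312, 162, 100.4, 47.4 and 37.8 CPM for Eln-/-. The 3 lowest Zyx values were in the 3 libraries with the fewest genes, and its log2 fold change was -0.13 (SE 0.80). Vasp (chromosome 7, 19256929 to 19271817, minus strand), a filament elongation factor that zyxin recruits, was at 11.3, 33.8, 12.1, 48.5 and 42.2 CPM for Eln+/+ against 61.4, 72.3, 47.6, 41.0 and 91.3 CPM for Eln-/-. Only Eln+/+ replicates 4 and 5 reached the lower Eln-/- values, and the highest was in Eln-/- replicate 5 and not in replicate 1. The means of Vasp were 29.6 ± 17.2 CPM for Eln+/+ against 62.7 ± 20.1 CPM for Eln-/- (SD, n = 5), and its log2 fold change of 1.08 (SE 0.52) had an interval of -0.053 to 2.22 and the lowest rank by p of all members, with an adjusted p of 1.00 (edgeR's quasi-likelihood test, Benjamini-Hochberg). It was 1.09 without Eln-/- replicate 1 and 0.84 without the 3 libraries with the fewest genes, and its adjusted p ranged from 0.645 to 1.00 over the 18 other settings.

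Among signalling members, Ptk2, the focal adhesion kinase, ranged over 0.198 to 97.0 CPM and was nearly absent from Eln+/+ replicate 1 (3 counts). Ptk2 had a log2 fold change of 0.32 (SE 0.95). Pxn, or paxillin, ranged over 0 to 39.6 CPM, with 0 counts in Eln-/- replicate 4, and had a log2 fold change of -0.42 (SE 1.29). Bcar1, the p130Cas scaffold that is phosphorylated under stretch, ranged over 0.325 to 41.2 CPM (log2 fold change 0.60, SE 0.89), and its sign was positive in all 18 other settings.

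Promoter sequences were available for 25 of the 32 members (30 start sites, RefSeq, GRCm38.p6). The 250 bases before each start were searched on both strands for the CArG box, the site of serum response factor, and for GGAATG, the core site of the TEAD partners of YAP. Both factors are known regulators of cytoskeletal genes. A CArG box stood in the window of 2 of these 25 members, Vcl and Fermt2, and in 1.47% of all 32851 promoter windows. GGAATG, on either strand, stood in 4 of these 25 members, Itgb1, Vcl, Actn4 and Flna, and in 12.6% of all windows. Neither count was tested against the share of all windows. The Flna window lies inside the annotated Flna gene. The windows of Vcl, Fermt2 and Itgb1 are printed 5′ to 3′ with these matches in capitals, since Vcl holds both motifs, Fermt2 the other CArG box and Itgb1 the motif nearest to its start. Bases inside the annotated Fermt2 gene were left out. Vcl is at chr14:20929148-20929397 on the plus strand, Fermt2 at chr14:45530119-45530315 on the minus strand and Itgb1 at chr8:128685404-128685653 on the plus strand.
Vcl: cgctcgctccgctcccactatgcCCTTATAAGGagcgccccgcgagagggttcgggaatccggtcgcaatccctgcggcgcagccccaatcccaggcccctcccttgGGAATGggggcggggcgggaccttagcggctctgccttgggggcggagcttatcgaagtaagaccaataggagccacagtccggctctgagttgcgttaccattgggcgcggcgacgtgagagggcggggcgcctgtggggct
Fermt2: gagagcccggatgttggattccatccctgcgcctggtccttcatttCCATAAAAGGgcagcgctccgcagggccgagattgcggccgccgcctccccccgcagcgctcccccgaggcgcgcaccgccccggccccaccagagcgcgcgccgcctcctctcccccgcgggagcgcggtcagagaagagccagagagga
Itgb1: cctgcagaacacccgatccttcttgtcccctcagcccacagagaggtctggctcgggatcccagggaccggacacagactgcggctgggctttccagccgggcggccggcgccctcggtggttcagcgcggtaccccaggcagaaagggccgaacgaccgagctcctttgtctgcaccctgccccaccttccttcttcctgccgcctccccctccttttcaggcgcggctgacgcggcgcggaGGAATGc
Counted from the start site, the CArG box begins at base -227 in Vcl and -204 in Fermt2, and GGAATG begins at base -143 in Vcl and -7 in Itgb1. Vcl, Fermt2 and Itgb1 all had their highest value in Eln-/- replicate 1, at 144, 243 and 814 CPM, as did members without either motif. A match describes the letters only, and no binding was measured here.

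Across the whole list, no member was shown to differ between genotypes beyond the spread of the libraries. With edgeR's quasi-likelihood test 0 of the 30 members tested had an adjusted p under 0.05, and 0% of the 15718 genes tested did. None of the 30 reached an unadjusted p under 0.05 in this fit either, where 81 genes (0.515%) did. Eln itself missed the adjusted threshold in the same fit (adjusted p = 0.152, edgeR's quasi-likelihood test). In none of the 30 did the libraries of the genotypes stay apart without overlap, against 48 genes (0.305%). DESeq2 called 6 genes, limma-voom 2 and its form with quality weights 7, with no member among them. An unadjusted p under 0.05 was reached by 2 members with DESeq2, 1 with limma-voom and 2 with quality weights. The share of all genes was not worked out for those fits, so these counts cannot be set against a background. The median SE of the 30 log2 fold changes was 1.10, beside 1.02 over all genes tested. A p that misses the threshold does not show that the levels are the same. The narrowest intervals, those of Ilk and Pdlim7, still run from -0.98 to 0.91 in all.

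**Figure D4:**
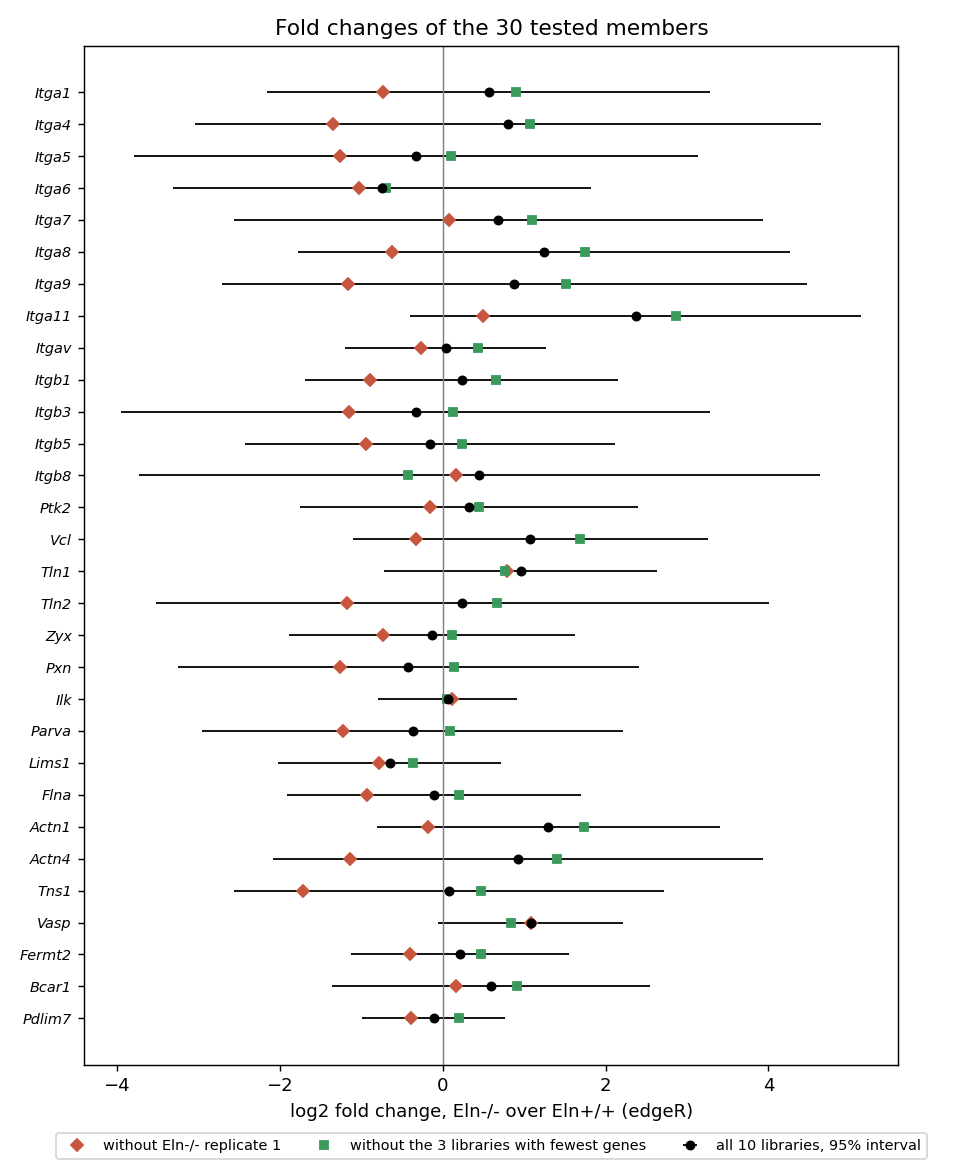
Log2 fold change, Eln-/- over Eln+/+, of the 30 tested members, from edgeR with all 10 libraries (black, bars for the 95% interval), without Eln-/- replicate 1 (red diamonds) and with the 3 libraries of fewest genes left out (green squares). Each black interval spans 0, and most red diamonds lie left of 0 while most green squares lie right of it.

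By role, 7 of 9 alpha subunits, 2 of 4 beta subunits and 11 of 17 adaptors had positive fold changes, with medians of 0.68, 0.043 and 0.21 beside 0.021 over all genes tested. Together 20 of 30 were positive (66.7%), against 51.5% of all genes. This count moved with the libraries and the method. Without Eln-/- replicate 1 it was 7 of 30, beside 43.8% of all genes, and the medians of the alpha, beta and adaptor groups were -0.74, -0.92 and -0.40. Without the 3 libraries with the fewest genes it was 27 of 30, beside 52.8% of all genes, with medians of 1.08, 0.18 and 0.47. The count was also lower with limma-voom (14 of 30), with quality weights added (13) and without Eln+/+ replicate 2 and Eln-/- replicate 1 together (9 of 29 tested). Of the 30, 6 had the same sign in all 18 other settings: Itga11, Tln1, Vasp and Bcar1 above 0, and Itga6 and Lims1 below 0.

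Many members were high or low in the same libraries. Eln-/- replicate 1 held the highest value of 23 of the 30 members tested, and of 21.6% of all genes tested. It lay above all 5 Eln+/+ libraries in 26 of all 32 members, beside 25.7% of genes. The other Eln-/- libraries with many detected genes did not share this. Eln-/- replicate 2 lay within the range of Eln+/+ replicates 2 to 5 in 29 of 32 members (75.5% of genes), and Eln-/- replicate 3 in 26 (61.7% of genes). At the low end, 13 of the 30 members tested had all 3 libraries with the fewest genes below all 7 others, against 21.5% of genes. These were Itga1, Itga5, Itga7, Itgb1, Itgb3, Itgb5, Tln2, Zyx, Parva, Lims1, Flna, Actn1 and Actn4. No tested member had those 3 libraries above all others, where 16.0% of genes did.

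**Figure D5:**
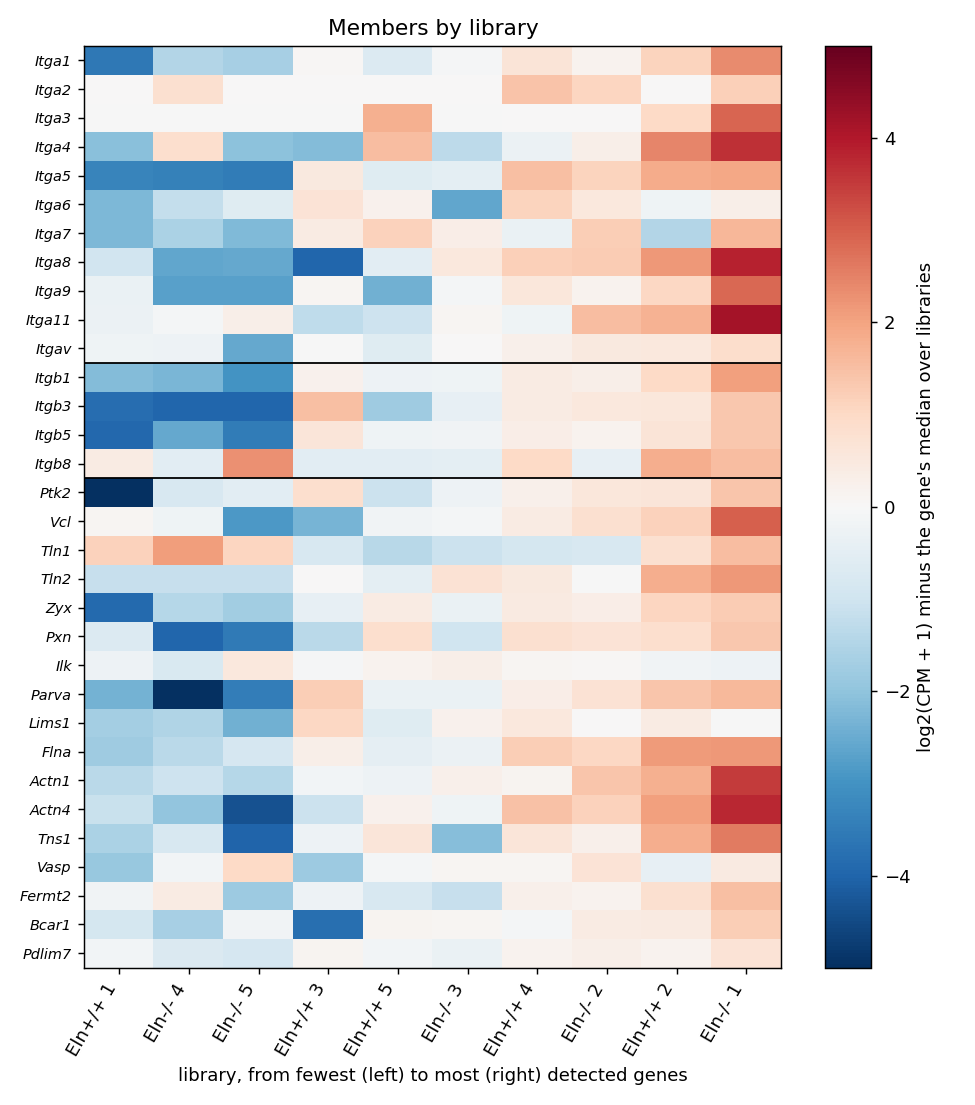
Log2(CPM + 1) of each of the 32 members in each library, minus the gene's median over the 10 libraries, with libraries ordered by the number of detected genes and black lines between alpha subunits, beta subunits and adaptors. The right column, Eln-/- replicate 1, is red for most members, the 3 left columns are mostly blue, Tln1 is red in all 3 of them, and Vasp, Itgb8 and Ilk are highest in one of them, Eln-/- replicate 5.

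Over all genes tested, this pattern moved with transcript length. There the median log2 CPM difference between the 3 libraries with the fewest genes and the other 7 was 0.62 in the shortest of 3 equal groups of genes by exon length (up to 2366 bases), -2.07 in the middle group and -2.30 in the longest (from 5093 bases). Of the 30 members tested, 0 were in the shortest group, 8 in the middle and 22 in the longest, and their own median was -2.77. Ilk and Vasp, 2744 and 2617 bases long, the shortest members, had differences of -0.19 and -0.21. Among the members the values did not follow length throughout. The longest, Itga1 and Tln2, 18599 and 18357 bases, were at -4.44 and -5.78. Itgb3 and Itga5, 5901 and 4933 bases long, had the lowest, -8.09 and -7.65, while the longer Tln1 and Itgb8, 9801 and 11060 bases, were the positive ones, at 1.89 and 0.99. Itgb1, 4081 bases long, was at -3.01, and the longer Fermt2 and Itgav, 5191 and 10744 bases, at -0.59 and -1.28. The part of length in the members' values was not tested.

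The integrins outside the list were scarce. Of 11 further subunits, including those of leukocytes, platelets and epithelia, 9 had a row in the table. Itgam and Itgb7 had no count in any library, and Itgb2, the beta chain of leukocytes, had 1 count in all. Itga2b, the platelet subunit and the single one of these that was tested, reached 8.64 CPM, with a log2 fold change of 0.45 (SE 1.16). Itgal was at 5.15 CPM in Eln+/+ replicate 3 and 0 elsewhere.

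Other adhesion proteins gave no call either. With edgeR 0 of 46 were called and 0 had an unadjusted p under 0.05, and DESeq2 and both forms of limma-voom called 0. An unadjusted p under 0.05 was reached by 0 with DESeq2, 1 with limma-voom and 4 with quality weights added. The share of all genes in those fits was not worked out. Of 54 listed, 46 were tested, 23 with positive and 23 with negative fold changes and a median of -0.0041. The most abundant by CPM were Pdlim2, a PDZ and LIM protein (249 ± 217 CPM for Eln+/+ against 276 ± 192 CPM for Eln-/-), and the tetraspanin Cd9 (223 ± 234 CPM for Eln+/+ against 284 ± 245 CPM for Eln-/-). Lowest by rank of p were Ilkap, a phosphatase that binds Ilk (53.3 ± 10.7 CPM for Eln+/+ against 81.3 ± 21.5 CPM for Eln-/-, log2 fold change 0.61, SE 0.36), and Cd47, an integrin-associated receptor of thrombospondin (92.2 ± 45.2 CPM for Eln+/+ against 62.2 ± 29.7 CPM for Eln-/-, log2 fold change -0.57, SE 0.48).

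Of the ligands, 0 of 29 were called by edgeR or by those tools. An unadjusted p under 0.05 was reached by 0 in the reported edgeR fit, 0 with DESeq2, 0 with limma-voom and 4 with quality weights added. The share of all genes with quality weights was not worked out. Fold changes in the reported fit were positive for 16 and negative for 13, with a median of 0.062. Eln-/- replicate 1 held the highest value of 22 of the 29 ligands. Lowest by rank of p were the matricellular protein Ccn2 and the basement membrane collagen chain Col4a1, with log2 fold changes of 1.37 (SE 0.70) and 1.68 (SE 1.05) (edgeR). Col4a1 was at 8.86, 19.9, 7.65, 12.4 and 6.46 CPM for Eln+/+ against 151, 5.12, 4.99, 10.9 and 4.07 CPM for Eln-/-, so its positive value rested on Eln-/- replicate 1, and leaving that library out gave 0.65 for Ccn2 and -0.83 for Col4a1. The most abundant by CPM, Col1a1 and Fbln5, had log2 fold changes of 0.15 (SE 1.19) and 0.43 (SE 0.84), and of -1.56 and -0.30 without Eln-/- replicate 1.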

How the data were processed

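Messenger RNA of sorted cells was sequenced in 10 libraries, 5 per genotype. The authors deposited 1 table of estimated counts per gene, not scaled for depth. STAR, DESeq2 and mm10 are named in the submitters' processing notes. Which program counted the reads, with what annotation and strand, is not given in the sources used here. Each column was assigned through its sample name, and counts were rounded to whole numbers. Gene spans were the same as in GENCODE mouse release 21 (GRCm38) for 96.0% of 28165 genes, with the table's last base 1 higher. Exon lengths and overlaps came from that release, and RPKM was computed here from TMM-scaled CPM.

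Genes were kept by filterByExpr (15718) and scaled by TMM. Genotypes were compared with edgeR's quasi-likelihood test (two-sided, genotype as the one term) and Benjamini-Hochberg adjustment over all genes, at 0.05. The SE is the size of the fold change over the square root of F, and intervals are approximate 95% intervals from it. Log2 CPM used a prior count of 2. The software was edgeR 4.0.16, DESeq2 1.42.0 and limma 3.58.1, run in R 4.3.3. The procedure was also run on simulated counts, drawn independently for each gene. That simulation held no shifts of many genes at once in single libraries, as seen here, so nothing is concluded from it. Total counts were 26951681 to 63866346 per library. TMM factors ran from 0.486 (Eln-/- replicate 4) and 0.562 (Eln+/+ replicate 1) to 1.37 (Eln+/+ replicate 2). With library sizes scaled by these factors, 3 counts stood at 0.0344 CPM (Eln+/+ replicate 2) to 0.218 CPM (Eln-/- replicate 4).

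The members, lists and settings were chosen with earlier results of these data known. All members are accounted for. Values in every library are given for the 3 alpha, 2 beta and 4 adaptor members highest by mean RPKM and those with the smallest p. From the other lists the 2 most abundant genes and the 2 of smallest p are named. Further integrin subunits named by their counts, the immediate early list and the printed promoters were chosen after values were seen. Alternatives were another scaling, no filter, DESeq2, limma-voom with and without quality weights, a replicate block and leaving out libraries.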

Additional observations from a re-analysis of the deposited data

Results flagged for a closer look

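Within each genotype, the gap between the highest or lowest library and its nearest neighbour was set against the group's range, for the 32 members and Eln. If values were normally distributed, about 1 in 20 groups would stand out in this way, and 15 of 66 did. The CPM values were not log-transformed, and in all 15 the highest library stood apart. That rate therefore does not measure chance here. In 12 of the 15 the library that stood apart was Eln-/- replicate 1. Its values there were Itga1 60.3 CPM, Itga3 6.63 CPM, Itga4 55.4 CPM, Itga8 290.1 CPM, Itga9 47.0 CPM, Itga11 56.2 CPM, Itgb1 814 CPM, Vcl 144 CPM, Actn1 283 CPM, Actn4 283 CPM and Tns1 107 CPM. The same library held the highest Eln value of its genotype, 0.493 CPM. Eln+/+ replicate 2 stood apart for Itga11 at 9.59 CPM and Actn1 at 84.2 CPM, and Eln+/+ replicate 4 for Itga2 at 1.69 CPM. These genes share their libraries, so the 15 are not independent.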

How the results depend on the processing

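No member was called in any of the 18 other settings, where the smallest adjusted p of a member was 0.629. The groups' medians moved by less than the spread between libraries, an SD of 2.18 (alpha), 2.13 (beta) and 1.39 (adaptors). That spread was wider than the medians themselves, so this does not show that they were stable. The signs of the medians did not hold. Genes called went from 0 to 6 with DESeq2 (4 higher, 2 lower), 2 with limma-voom (1 and 1), 7 with quality weights added to limma-voom (5 and 2) and 1, lower, without Eln+/+ replicate 2 and Eln-/- replicate 1 together. Leaving out single libraries gave 0 to 1 gene, 0 higher and 0 to 1 lower, the 1 without Eln-/- replicate 1. Eln, at -12.19 and not called in the reported fit (adjusted p = 0.152, edgeR), was called at -12.24 with DESeq2, -13.22 with limma-voom, -14.63 with quality weights, -14.69 without those 2 libraries and -15.14 without Eln-/- replicate 1 alone (adjusted p = 0.0110, edgeR). With each of the other 9 libraries left out singly it was not called, at -12.44 to -11.77.

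The labels do not say whether the replicate numbers pair the libraries. Same-numbered libraries deviated with correlations across genes of -0.56, 0.51, 0.12, -0.38 and 0.092. These cannot decide the question, because the libraries also differed widely in the genes detected. With the replicate block 0 genes were called, 12 of 30 members were positive and the medians were -0.27 (alpha), -1.03 (beta) and -0.23 (adaptors). Signs of log2 fold changes turned with the replicate block for Itga1 -0.38, Itga9 -1.65, Itgav -0.27, Itgb1 -0.87, Tln2 -2.15, Actn4 -1.17, Tns1 -1.76 and Fermt2 -0.18. They turned with limma-voom for Itga9 -1.90, Itgav -0.17, Itgb1 -0.42, Tln2 -0.84, Zyx 0.013, Actn4 -0.71, Tns1 -1.45 and Fermt2 -0.15, and with quality weights for Itga1 -0.13, Itgb1 -0.19, Itgb8 -2.33, Tln2 -0.50, Actn4 -0.27, Tns1 -0.98 and Fermt2 -0.20. Without the 3 libraries with the fewest genes, a setting chosen after the data were seen, they turned for Itga5 0.11, Itgb3 0.12, Itgb5 0.24, Itgb8 -0.43, Zyx 0.12, Pxn 0.14, Parva 0.092, Flna 0.20 and Pdlim7 0.21. Without Eln+/+ replicate 2 and Eln-/- replicate 1, chosen likewise, they turned for Itga1 -0.29, Itga4 -0.29, Itga7 -0.17, Itga9 -0.76, Itgav -0.10, Itgb1 -0.57, Tln2 -0.064, Actn4 -0.55, Tns1 -1.13 and Fermt2 -0.13, and Itgb8 was not tested. Another scaling (RLE), no filter and DESeq2 turned none. With single libraries left out, the ranges of members whose sign turned were Itga1 -0.74 to 1.02, Itga4 -1.34 to 1.85, Itga5 -1.25 to 0.16, Itga8 -0.63 to 2.15, Itga9 -1.16 to 1.29, Itgav -0.26 to 0.32, Itgb1 -0.89 to 0.56, Itgb3 -1.15 to 0.32, Itgb5 -0.94 to 0.15, Itgb8 -0.73 to 1.43, Ptk2 -0.16 to 0.65, Vcl -0.33 to 1.49, Tln2 -1.17 to 1.35, Zyx -0.74 to 0.23, Ilk -0.086 to 0.22, Flna -0.93 to 0.55, Actn1 -0.18 to 2.05, Actn4 -1.13 to 1.51, Tns1 -1.71 to 0.65, Fermt2 -0.40 to 0.48 and Pdlim7 -0.39 to 0.031. Itga7, which turned without both of those libraries, ranged from 0.084 to 1.41. The cause was not tested.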
